A study of Homo sapiens with 18 samples.

Results

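Noncoding RNAs of 2 classes were followed in the H2052 mesothelioma line: the nuclear-retained long noncoding RNAs MALAT1, NEAT1, MEG3 and KCNQ1OT1, and the small nucleolar RNA (snoRNA) host genes GAS5, SNHG1, SNHG5 and SNHG8. The 8 genes were picked by symbol from the 30954 gene identifiers of the H2052 count table, with results of these libraries already known, so the way they differ between the genotypes is given as a description and carries no test. PolyA RNA had been sequenced from 12 H2052 libraries in 4 groups of 3: NF1 mutant cells in VT107, NF1 mutant cells in DMSO, parental cells in VT107 and parental cells in DMSO. VT107 was used at 1 µM for 24 h and blocks the auto-palmitoylation of TEAD transcription factors, through which YAP and TAZ act on genes. DMSO was the vehicle at the same volume. H2052 is an established human pleural mesothelioma line with Hippo pathway mutations that all 4 groups share. The NF1 mutant cells had been made by lentiviral Cas9 and guide RNA delivery with drug selection. No source used here names the guide or says whether the mutant cells were a clone. The column names of the 2 genotypes begin differently in the count table and no source used here gives the batches, so genotype and library batch cannot be told apart.

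MALAT1 is an abundant single-exon RNA of nuclear speckles, the bodies that store splicing factors. Its mature end is made by RNase P cleavage instead of polyadenylation, and an encoded stretch of A bases folds there with U-rich elements into a triple helix. NEAT1 is the scaffold of paraspeckles and is made as a short polyadenylated and a long non-polyadenylated form. KCNQ1OT1 is an imprinted RNA that is read from inside the KCNQ1 gene on the opposite strand and silences neighbouring genes on its own chromosome. MEG3 is an imprinted RNA of the DLK1 locus that is counted as growth-suppressing. The snoRNA hosts work differently: their introns release snoRNAs that guide the modification of ribosomal RNA, while the spliced exons reach the cytoplasm and are often removed by nonsense-mediated decay. Their transcripts typically begin with a run of pyrimidines, the 5′ TOP motif shared with mRNAs of the translation machinery.

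The sequences shown are the encoded A runs of 3 nuclear-retained RNAs, since the libraries were made from polyA RNA, and the starts of the hosts, where a 5′ TOP motif would lie. The first 3 lines below give the surroundings of the longest A run in the longest GENCODE v29 transcripts of MALAT1, KCNQ1OT1 and MEG3, with the run in capitals and GRCh38 coordinates. MALAT1 (chr11:65505998-65506126, plus strand) shows the U-rich elements, printed as t, upstream of its run.
MALAT1: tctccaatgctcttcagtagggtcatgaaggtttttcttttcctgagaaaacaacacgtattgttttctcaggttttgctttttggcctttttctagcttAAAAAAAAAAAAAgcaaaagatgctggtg
KCNQ1OT1 (chr11:2610687-2610775, minus strand): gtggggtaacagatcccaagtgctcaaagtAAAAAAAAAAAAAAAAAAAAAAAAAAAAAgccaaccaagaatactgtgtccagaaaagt
MEG3 (chr14:100850581-100850653, plus strand): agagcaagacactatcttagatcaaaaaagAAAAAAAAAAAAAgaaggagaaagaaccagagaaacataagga
The longest A run had 13 bases in MALAT1, 29 in KCNQ1OT1 and 13 in MEG3, against 5 in GAS5, 6 in SNHG1, 6 in SNHG5 and 4 in SNHG8. No A run is given for NEAT1, so the classes are not compared in full. The KCNQ1OT1 run stands at base 89250 of a transcript of 91667 nt, whereas the interval counted in these data spans 24669 bases, so that run was not shown to lie in the RNA that was counted.

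For the hosts, the longest run of C and T near the annotated start is in capitals. The SNHG1, SNHG5 and SNHG8 windows are from RefSeq (GRCh38.p14) and hold 20 bases before and 40 from the start. The GAS5 line is the first exon of its longest GENCODE v29 transcript.
SNHG1 (chr11:62855846-62855905, minus strand): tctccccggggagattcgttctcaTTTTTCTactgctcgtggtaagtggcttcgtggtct
SNHG5 (chr6:85678694-85678753, minus strand): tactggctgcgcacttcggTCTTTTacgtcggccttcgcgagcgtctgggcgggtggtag
SNHG8 (chr4:118278742-118278801, plus strand): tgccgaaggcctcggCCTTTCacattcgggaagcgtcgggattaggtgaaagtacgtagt
GAS5 (chr1:173867960-173867989, minus strand): CTTTTCgaggtaggagtcgactcctgtgag
The run had 7 bases in SNHG1 and 6 bases in SNHG5, SNHG8 and GAS5. A C followed by at least 4 pyrimidines, beginning within 5 bases of the start on the gene's strand, stood in 21.1% of all 35116 RefSeq promoter windows and in those of SNHG5, SNHG8, MALAT1 and MEG3. The RefSeq windows of GAS5 and SNHG1 did not hold it. The GAS5 start shown above is from GENCODE and was not part of that count. The TEAD motif GGAATG, or its reverse complement CATTCC, was in none of the 9 windows of the 6 members that had one and in 14.03% of all windows.

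Counts assigned to genes summed to 3285363 to 5489092 in the NF1 mutant libraries and to 10950284 to 13418485 in the parental libraries. NF1 itself had 29 to 89 counts in the mutant libraries, against 361 to 867 in the parental ones (8.22 to 18.0 against 26.1 to 67.7 CPM, counts scaled to the library total). The TEAD targets CTGF, CYR61 and ANKRD1 had lower CPM in VT107 than in DMSO in both genotypes without overlap. The mesothelial keratins KRT8, KRT18 and KRT19 were abundant in every library, CALB2 was at 0 in some, and the endothelial VWF was at 0 in all. Of 8 leukocyte markers CD53 and TYROBP were at 0, PTPRC stayed at or below 0.268 CPM, CD74 reached 6.78 CPM and CORO1A, an actin-binding protein, had 9.49 to 27.2 CPM. Their summed level was 15.8 to 30.9 CPM in NF1 mutant and 10.2 to 23.5 CPM in parental libraries. NF1 mutant VT107 replicate 1 stood apart, with correlations of 0.663 to 0.792 with the other 11 libraries over log2 CPM from plain library sums, against 0.874 to 0.995 among those 11. The 2 parental libraries numbered 3 were also set apart from numbers 1 and 2. Values without these libraries are given beside the results below.

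For each of the 8 RNAs the ranges of the 2 genotypes did not overlap in DMSO. The 4 nuclear-retained RNAs were lower in the NF1 mutant cells than in any parental library, and the 4 snoRNA hosts were higher. In all, 23.0% of the 12475 genes tested were lower without overlap and 21.5% were higher without overlap, and since the members were chosen with this contrast known nothing is read from their counts. Levels are again CPM scaled by TMM.

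**Figure D1:**
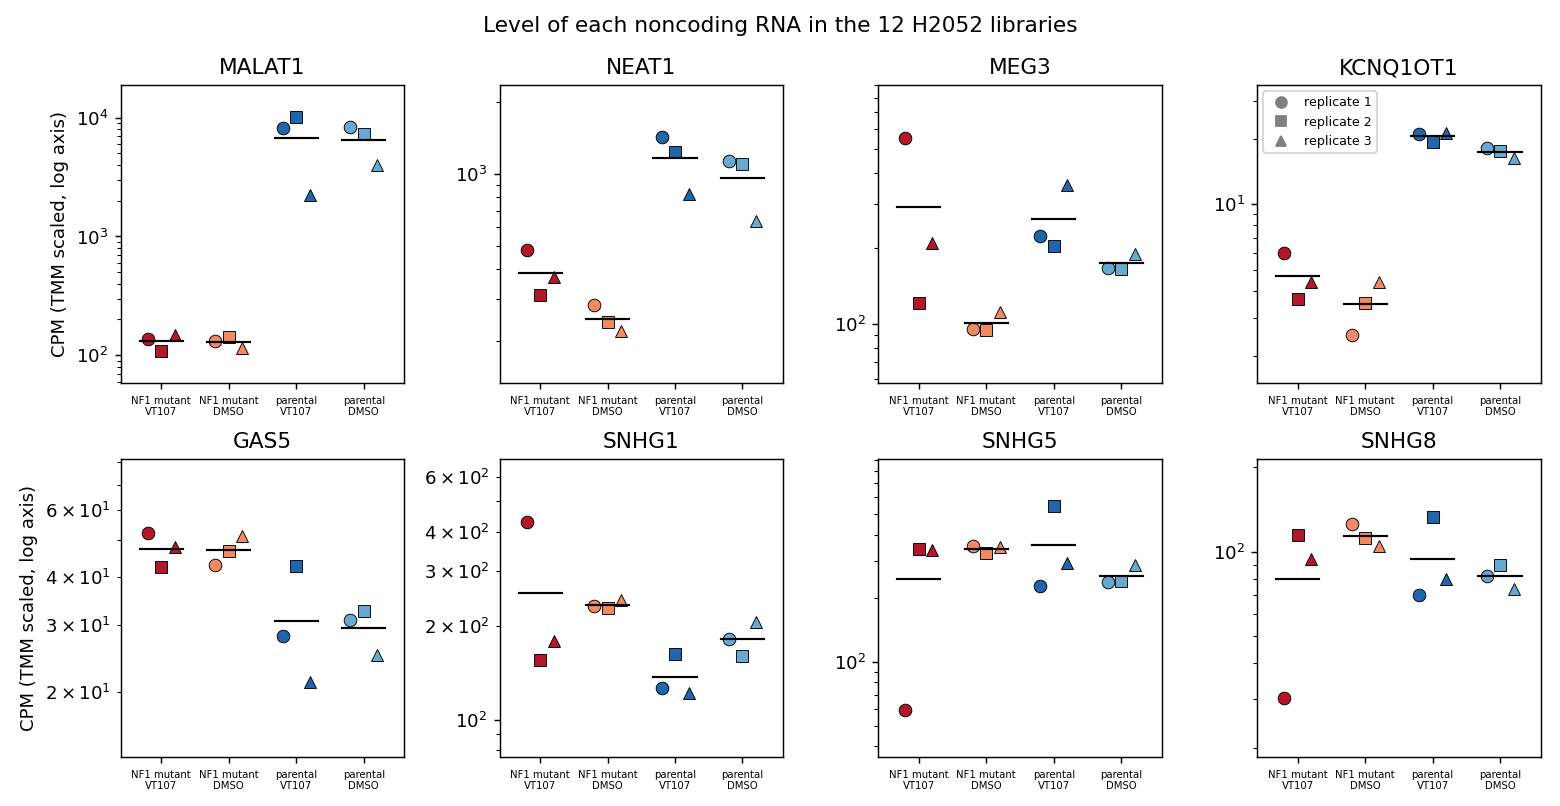
CPM (TMM scaled, log axis) of the 8 noncoding RNAs in the 12 H2052 libraries, by group, with symbols for the replicate and lines for the group means (n = 3). In DMSO the 3 NF1 mutant libraries lie below the 3 parental ones for the upper 4 RNAs and above them for the lower 4.

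MALAT1 (chr11:65265233-65273940 in hg19, plus strand) had by far the widest separation. In DMSO it measured 131, 141 and 115 CPM in the NF1 mutant libraries, against 8321, 7356 and 3970 CPM in the parental libraries. In VT107 it measured 138, 109 and 149 CPM in the NF1 mutant libraries, against 8149, 10050 and 2238 CPM in the parental libraries. The mutant libraries spanned 1.36 fold within VT107 and 1.23 fold within DMSO, whereas the parental ones spanned 4.49 fold and 2.10 fold, with replicate 3 lowest in both. The log2 difference was -5.64 (SE 0.28) in DMSO, 49.7 fold lower, and -5.70 (SE 0.65) in VT107, 51.9 fold lower. It was the most negative value of all 12475 genes in DMSO and of all 11654 in VT107. In the deposited counts MALAT1 took 0.0112 to 0.0155% of a mutant library and 0.234 to 0.903% of a parental one.

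NEAT1 (chr11:65190245-65213011, plus strand), the paraspeckle scaffold that neighbours MALAT1, followed the same order at smaller size. It had 283, 240.5 and 220.2 CPM in NF1 mutant cells in DMSO, against 1135, 1103 and 639 CPM in parental cells in DMSO. In VT107 it had 479.5, 312 and 372 CPM in NF1 mutant cells, against 1431, 1233 and 824 CPM in parental cells. Parental replicate 3 was again the lowest of its group in both treatments, and still lay above every mutant library. The log2 difference was -1.93 (SE 0.21) in DMSO, 3.80 fold lower, and -1.59 (SE 0.36) in VT107.

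KCNQ1OT1 (chr11:2696556-2721224, minus strand) was the least abundant member, with 14 to 21 counts in a mutant library and 183 to 297 in a parental one. It measured 2.50, 3.501 and 4.39 CPM in NF1 mutant cells in DMSO, against 18.2, 17.7 and 16.4 CPM in parental cells in DMSO. In VT107 it measured 5.95, 3.65 and 4.39 CPM in NF1 mutant cells, against 21.1, 19.4 and 21.3 CPM in parental cells. Here parental replicate 3 was not set apart, with the group spanning only 1.10 to 1.11 fold. The log2 difference was -2.33 (SE 0.24) in DMSO, 5.02 fold lower, and -2.16 (SE 0.37) in VT107. KCNQ1, on the other strand across the whole of KCNQ1OT1, held 0 or 1 count in every H2052 library.

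MEG3 (chr14:101245747-101327368, plus strand) behaved differently from the other 3 nuclear-retained RNAs. In DMSO it had 94.9, 94.5 and 111 CPM in NF1 mutant cells, against 167.5, 165 and 190.1 CPM in parental cells. In VT107 the groups overlapped, with 551, 121 and 211 CPM in NF1 mutant cells, against 224, 205 and 359.8 CPM in parental cells. The log2 difference was -0.78 (SE 0.13) in DMSO and 0.15 (SE 0.55) in VT107, and -0.67 (SE 0.36) in VT107 without NF1 mutant VT107 replicate 1, the library with 551 CPM. The annotated antisense gene RP11-123M6.2 overlaps MEG3 and was counted beside it, at 75.4, 76.4 and 90.1 CPM in NF1 mutant cells in DMSO and 56.2, 53.6 and 115 CPM in parental cells in DMSO. MEG3 counts were 1.23 to 1.26 times those of the antisense gene in NF1 mutant cells in DMSO, against 1.65 to 3.07 times in parental cells in DMSO. No source used here gives the strand setting, so the MEG3 level is uncertain by what the 2 genes share.

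The snoRNA hosts differed less. GAS5 (chr1:173833038-173838020, minus strand), named for its rise in growth-arrested cells, had 43.1, 46.8 and 51.2 CPM in NF1 mutant cells in DMSO, against 30.9, 32.6 and 25.1 CPM in parental cells in DMSO. In VT107 it had 52.2, 42.6 and 48.0 CPM in NF1 mutant cells, against 28.0, 42.9 and 21.2 CPM in parental cells, so that parental replicate 2 reached into the mutant range. The log2 difference was 0.69 (SE 0.16) in DMSO and 0.62 (SE 0.36) in VT107. The opposite-strand genes ZBTB37 and ENSG00000231792 overlap GAS5 and held 0 to 4 and 32 to 116 counts.

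SNHG1 (chr11:62619460-62623386, minus strand), host of box C/D snoRNAs, had 231, 228 and 242 CPM in NF1 mutant cells in DMSO, against 181, 159.5 and 205 CPM in parental cells in DMSO, a log2 difference of 0.38 (SE 0.13). SNHG5 (chr6:86386725-86388451, minus strand), host of the SNORD50 snoRNAs, had 353, 326 and 351 CPM in NF1 mutant cells in DMSO, against 238, 242 and 286 CPM in parental cells in DMSO, a log2 difference of 0.45 (SE 0.12). SNHG8 (chr4:119199914-119200974, plus strand), host of the box H/ACA snoRNA SNORA24, had 125, 112 and 105 CPM in NF1 mutant cells in DMSO, against 82.1, 89.7 and 73.7 CPM in parental cells in DMSO, a log2 difference of 0.50 (SE 0.13). The mutant libraries of these 3 hosts were close to each other in DMSO, within 1.06 to 1.19 fold.

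Without parental DMSO replicate 3 the log2 differences in DMSO were -5.90 for MALAT1, -2.15 for NEAT1, -2.38 for KCNQ1OT1 and -0.71 for MEG3, and 0.59 for GAS5, 0.48 for SNHG1, 0.54 for SNHG5 and 0.44 for SNHG8. Without parental VT107 replicate 3 those in VT107 were -6.11 for MALAT1, -1.79 for NEAT1, -2.13 for KCNQ1OT1 and 0.45 for MEG3, and 0.42 for GAS5, 0.81 for SNHG1, -0.66 for SNHG5 and -0.35 for SNHG8. Cell type markers had log2 differences of both signs in DMSO. Among mesothelial markers they were 1.03 (SE 0.29) for the keratin KRT19, 0.24 (SE 0.16) for KRT18 and -0.31 (SE 0.16) for MSLN. The stromal COL1A1 had 0.72 (SE 0.16), PDGFRA 0.16 (SE 0.30) and the leukocyte marker CORO1A 0.61 (SE 0.23). The part of these markers in the members' values was not tested.

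In VT107 that separation of the hosts was not kept. SNHG1 had 429, 155 and 179 CPM in NF1 mutant cells in VT107, against 127, 162 and 121.5 CPM in parental cells in VT107. SNHG5 had 59.5, 342 and 336 CPM in NF1 mutant cells in VT107, against 229, 545 and 294 CPM in parental cells in VT107. SNHG8 had 30.04, 114 and 94.5 CPM in NF1 mutant cells in VT107, against 70.1, 133 and 79.96 CPM in parental cells in VT107. NF1 mutant VT107 replicate 1 held the highest SNHG1 and the lowest SNHG5 and SNHG8 of its group, while parental VT107 replicate 2 held the highest SNHG5 and SNHG8 of its group. The log2 differences in VT107 were 0.89 (SE 0.44) for SNHG1, -0.54 (SE 0.63) for SNHG5 and -0.25 (SE 0.50) for SNHG8. Without NF1 mutant VT107 replicate 1 they were 0.29 (SE 0.23), -0.07 (SE 0.37) and 0.15 (SE 0.31).

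In VT107, 3 members were lower in NF1 mutant cells without overlap, namely MALAT1, NEAT1 and KCNQ1OT1, and none was higher. Of the 11654 genes tested there, 14.3% were lower and 11.2% higher without overlap. Without NF1 mutant VT107 replicate 1 the same 3 members did not overlap, and the shares over all genes were 21.2% lower and 20.5% higher. With CPM over plain library sums, GAS5 and SNHG1 were also higher in NF1 mutant cells in VT107 without overlap, while the DMSO separation of the 8 members was as before.

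**Figure D2:**
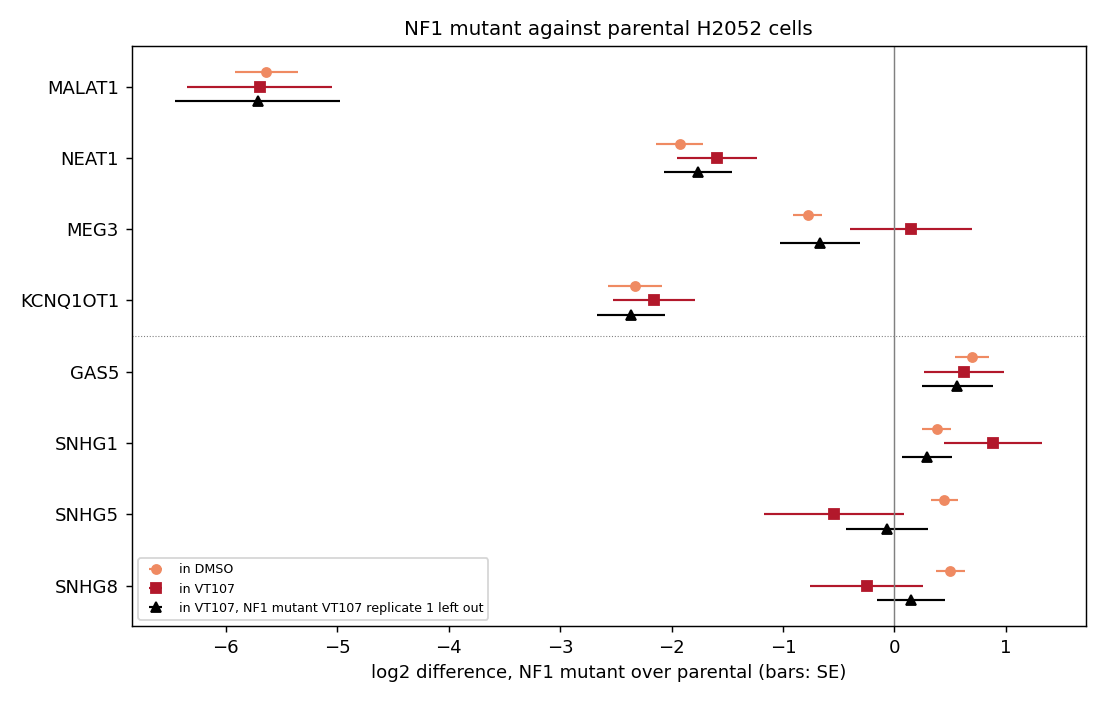
Log2 difference between NF1 mutant and parental H2052 cells for each RNA, with SE bars, in DMSO, in VT107, and in VT107 without NF1 mutant VT107 replicate 1 (n = 3 libraries a group, or 2 where that library is left out). MALAT1, NEAT1 and KCNQ1OT1 are below -1 in all 3 settings, and GAS5 and SNHG1 above 0.

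The balance of the 2 classes was also expressed per library, as the mean log2 CPM of the 4 nuclear-retained RNAs minus that of the 4 hosts. It was -1.41, -1.28 and -1.30 in NF1 mutant cells in DMSO, against 2.01, 1.93 and 1.55 in parental cells in DMSO. In VT107 it was 0.61, -1.02 and -0.60 in NF1 mutant cells, against 2.48, 1.66 and 1.97 in parental cells. The highest mutant value, that of VT107 replicate 1, stayed below the lowest parental one. Per kilobase of transcript (for KCNQ1OT1, of the 24669 bases counted) the order of the members changed with the genotype. MALAT1 had a mean of 14.8 CPM per kb in NF1 mutant cells in DMSO, against 752 CPM per kb in parental cells in DMSO, where it was the highest of the 8. SNHG5 had 333 CPM per kb in NF1 mutant cells in DMSO, where it was the highest of the 8, against 247 CPM per kb in parental cells in DMSO. KCNQ1OT1 was the lowest in both, at 0.140 CPM per kb in NF1 mutant cells in DMSO and 0.707 CPM per kb in parental cells in DMSO. In bulk RNA, fewer cells of a type and less RNA per cell cannot be told apart.

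Among all genes tested in DMSO, 142 had a more negative log2 difference than KCNQ1OT1, 274 than NEAT1 and 1934 than MEG3. At the other end, 8.99% of the genes had a more positive value than GAS5, 16.4% than SNHG8, 19.7% than SNHG5 and 23.5% than SNHG1. By edgeR's quasi-likelihood test, 3420 of the 12475 genes passed an adjusted p of 0.05 between the genotypes in DMSO, 1557 higher and 1863 lower in NF1 mutant cells, with a median log2 difference of -0.01 over all genes. The count was 6409 without parental DMSO replicate 3, and between 1779 and 2271 without any 1 of the other 5 libraries. In VT107 none of 11654 genes passed, 1945 had an unadjusted p under 0.05 and DESeq2 called 682, and without NF1 mutant VT107 replicate 1 edgeR called 185.

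**Figure D3:**
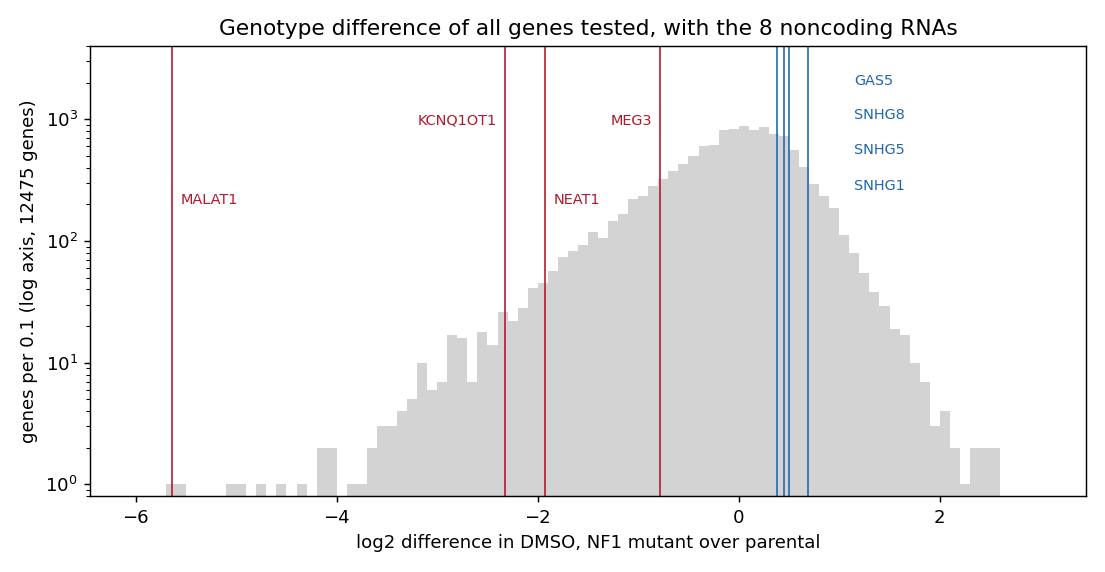
Histogram of the log2 difference in DMSO (NF1 mutant over parental) of 12475 genes, with a log count axis, and lines for the nuclear-retained RNAs (red) and the snoRNA hosts (blue). The red lines run out to -5.64 for MALAT1, at the edge of the distribution, whereas the blue lines stand between 0.38 and 0.69, within its bulk.

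Related genes were read from lists that hold none of the 8 members. The list counts in DMSO below stand beside 23.0% lower and 21.5% higher without overlap over all 12475 genes tested. Of 13 other nuclear-enriched long noncoding RNAs, 7 were tested in DMSO, of which 1 was lower and 1 higher in NF1 mutant cells without overlap, and their median log2 difference was -0.12, against -0.01 over all genes. PVT1, an RNA of the MYC locus, differed by -0.16 (SE 0.20), and TUG1, a conserved RNA found in nucleus and cytoplasm, by -0.87 (SE 0.19). Of 17 other snoRNA hosts, 15 were tested, of which 7 were higher and 1 lower without overlap, and their median log2 difference was 0.51. The most abundant, ZFAS1, differed by 0.03 (SE 0.13), and SNHG16 by 0.70 (SE 0.13). Of 21 listed snoRNAs from introns of the hosts, none was found among the genes counted in H2052, so their levels could not be read.

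Genes of the proteins that share these bodies were split in direction between the genotypes in DMSO. So were all genes tested, with 23.0% lower and 21.5% higher without overlap. Of 8 nuclear speckle proteins, 3 were lower and 2 higher in NF1 mutant cells without overlap (median -0.07). The core speckle proteins differed in size, with SRRM2 at a log2 difference of -0.08 (SE 0.12) SRSF2 at 0.03 (SE 0.19) and SON at -1.79 (SE 0.24). Of 12 paraspeckle proteins, 2 were lower and 3 higher (median 0.09), and the most abundant of them, HNRNPK, differed by 0.62 (SE 0.12), and SFPQ, a structural paraspeckle protein, by -0.01 (SE 0.12). The box C/D snoRNP core, which binds the snoRNAs of GAS5, SNHG1 and SNHG5, was split, with 2 of 4 lower and 2 of 4 higher: NOP58 differed by -1.64 (SE 0.13) the methyltransferase FBL by 0.63 (SE 0.20) and NHP2L1 by 0.66 (SE 0.16). The box H/ACA core was also split 2 and 2 of 4, with the pseudouridine synthase DKC1 at -1.45 (SE 0.16) and NOP10 at 0.33 (SE 0.13). Of 9 snoRNP assembly factors, 1 was lower and 4 were higher (median 0.30), with NOLC1 at -0.32 (SE 0.22) and PIH1D1 at -0.24 (SE 0.23). Of 14 nonsense-mediated decay factors, 3 were lower and 4 higher (median 0.13), with RBM8A at 0.33 (SE 0.11) and the helicase UPF1 at 0.22 (SE 0.14). The largest differences of that list were negative, UPF2 at -2.03 (SE 0.18) and UPF3B at -2.02 (SE 0.21). Of 16 mRNAs of the translation machinery with a 5′ TOP start, 5 were lower and 8 higher (median 0.21), with NPM1 at 0.22 (SE 0.10), EEF1D at 0.25 (SE 0.11), PABPC1 at -1.44 (SE 0.45) and EEF1A1 at 0.55 (SE 0.12).

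The genomic neighbours were read in the same way. Of 5 genes beside NEAT1 and MALAT1, 4 were tested, 3 of which were higher in NF1 mutant cells in DMSO without overlap and none lower (median 0.60), among them the nearby FRMD8 at a log2 difference of 0.57 (SE 0.11) and LTBP3 at 0.64 (SE 0.13). Of 7 imprinted 11p15 neighbours of KCNQ1OT1, 6 were tested, 1 of which was lower without overlap and none higher (median -0.00015). Among them PHLDA2 differed by 0.25 (SE 0.19), CD81 by 0.16 (SE 0.13) and CDKN1C, a cell cycle inhibitor and known KCNQ1OT1 target, by 0.06 (SE 0.32). Of 5 imprinted 14q32 neighbours of MEG3 only MEG9 was abundant enough to test, at -0.01 (SE 0.27).

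RNAs that lack a poly(A) tail had lower summed levels in NF1 mutant cells in DMSO, as MALAT1 had, and overlapped in VT107. Their summed level was 34.5, 34.4 and 28.99 CPM in NF1 mutant cells in DMSO, against 225, 135 and 62.4 CPM in parental cells in DMSO, over the 7 of 13 listed genes that had a row. In VT107 it was 73.7, 28.4 and 38.6 CPM in NF1 mutant cells, against 156, 279 and 50.01 CPM in parental cells. Of 6 tested in DMSO, 5 were lower in NF1 mutant cells without overlap and none higher, with a median log2 difference of -2.22. The histone genes HIST1H4C and HIST1H1C differed by -4.99 (SE 0.89) and -2.87 (SE 0.46), RPPH1, the RNA of RNase P, by 0.62 (SE 0.37) and RN7SL1, the RNA of the signal recognition particle, by -2.81 (SE 0.40). Parental replicate 3 had the lowest sum of its group in both treatments, as it had the lowest MALAT1 and NEAT1. Nuclear speckle protein mRNAs had the same order in parental cells, with sums of 1492 CPM in DMSO replicate 3 against 2268 and 2292 CPM in the others of that group. Mitochondrial mRNAs, which bear short tails, had a median log2 difference of -0.10, with 2 of 13 lower and none higher (MT-ND4 at -0.09, MT-ND3 at 0.29). By sign 8 were negative and 5 positive, and the most negative was MT-ATP8 at -3.605 (SE 0.93). The part of these RNAs in the result was not tested.

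Transcript features moved with the genotype difference as well. Over 10850 tested genes matched by symbol to GENCODE v29 (87.0%), the median log2 difference in DMSO was 0.11 for longest transcripts under 1 kb and -0.37 for those of 8 to 16 kb. It was 0.13 where the longest A run had at most 6 bases and -0.34 where it had 13 to 15. The medians did not fall further in the highest classes, at -0.34 for transcripts of 16 kb or more and -0.28 for A runs of 19 bases or more. The nuclear-retained RNAs have annotated transcripts of 8708 nt (MALAT1), 22743 nt (NEAT1), 12990 nt (MEG3) and 91667 nt (KCNQ1OT1), and the hosts of 1698 nt (GAS5), 2768 nt (SNHG1), 1032 nt (SNHG5) and 672 nt (SNHG8). By these annotated transcripts all 4 nuclear-retained RNAs fall among the 9.08% of genes with a transcript of at least 8 kb, and MALAT1, MEG3 and KCNQ1OT1 among the 14.9% with an A run of at least 13 bases, and none of the hosts does either. The A run of NEAT1 was left out, so nothing is said of its class by A run. MALAT1, NEAT1 and KCNQ1OT1 lay below the lower quartile of their length classes, while MEG3 lay between the quartiles of its own. The part of length and A runs in the result was not tested.

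**Figure D4:**
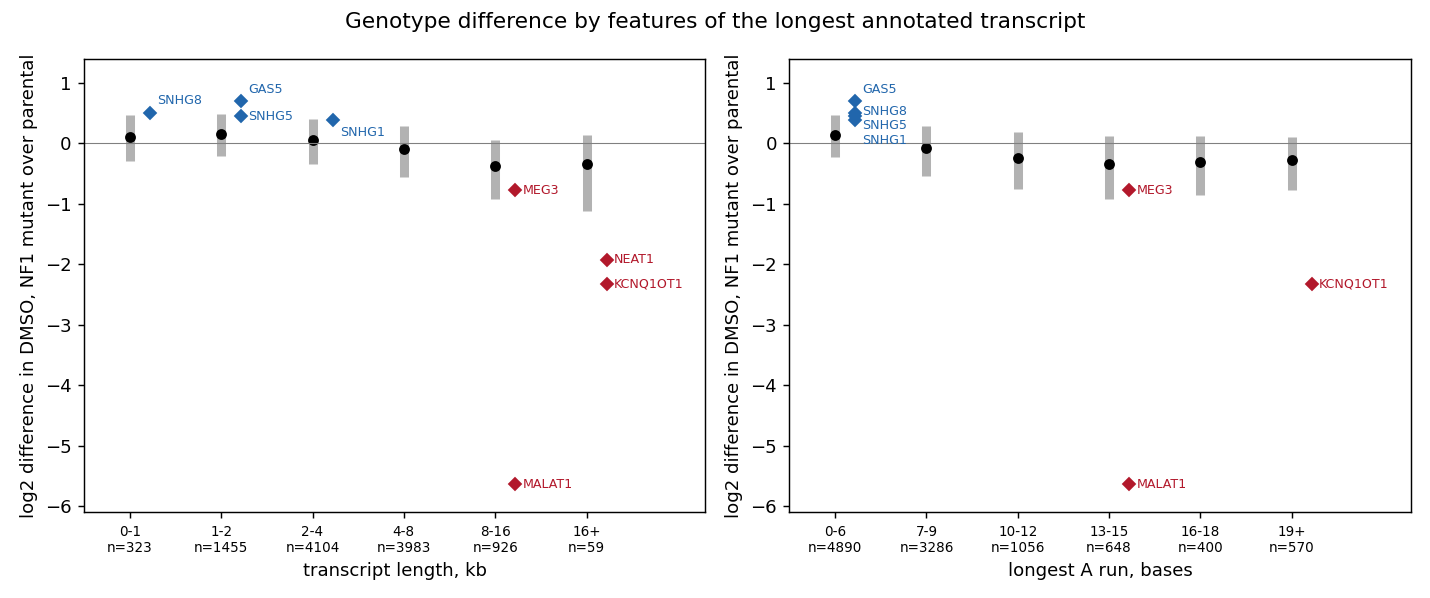
Log2 difference in DMSO (NF1 mutant over parental) by length of the longest annotated transcript (left, kb) and by its longest A run (right, bases). Black points are medians and grey bars quartiles over the n genes of each class, and diamonds are the nuclear-retained RNAs (red, NEAT1 on the left only) and snoRNA hosts (blue). The medians fall to -0.37 at 8 to 16 kb, and MALAT1, at -5.64, is far below its class in both panels.

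The second question was whether TEAD inhibition changed these RNAs, in a contrast that shares its DMSO libraries with the genotype comparison. No member passed the test in either genotype. In NF1 mutant cells none of the 11605 genes tested passed an adjusted p of 0.05 (0%), 623 had an unadjusted p under 0.05, and DESeq2 called 20. Without NF1 mutant VT107 replicate 1, edgeR called 198 of 12443 genes (1.59%), 109 higher and 89 lower in VT107, and still no member. In parental cells none of 12891 genes passed (0%), 474 had an unadjusted p under 0.05, and DESeq2 called 32. With the replicate number as a block, 215 genes passed (1.67%), 109 higher and 106 lower in VT107, and none was a member. Without the 2 parental libraries numbered 3, a setting chosen after the data were seen, 44 genes passed and no member.

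MEG3 came nearest in both genotypes. In NF1 mutant cells its log2 fold change was 1.56 (SE 0.53, 95% interval 0.33 to 2.79, adjusted p = 0.773), and 0.73 (SE 0.18, 0.33 to 1.12, adjusted p = 0.0653) without replicate 1 of the VT107 group. In parental cells it was 0.61 (SE 0.25, 0.02 to 1.21, adjusted p = 0.999), and 0.57 (SE 0.13, 0.27 to 0.86, adjusted p = 0.0689) with the block. Without parental VT107 replicate 3 the parental value was 0.30, and 0.41 without both libraries numbered 3. MEG3 was higher in all 3 VT107 libraries than in any DMSO library in each genotype. With plain library sums that held in NF1 mutant cells, while in parental cells VT107 replicate 2 reached into the DMSO range. The antisense RP11-123M6.2 moved beside it, with log2 fold changes of 0.73 (SE 0.20, adjusted p = 0.0896) in NF1 mutant cells without that library and 0.70 (SE 0.15, adjusted p = 0.0551) in parental cells with the block.

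NEAT1 had positive values in both genotypes, 0.65 (95% interval 0.07 to 1.24, adjusted p = 0.773) in NF1 mutant cells and 0.30 (-0.37 to 0.96, adjusted p = 0.999) in parental cells. In NF1 mutant cells its 3 VT107 libraries lay above the 3 DMSO libraries, and without replicate 1 of the VT107 group its value was 0.47 (0.18 to 0.75, adjusted p = 0.106). Its parental value was 0.09 without DMSO replicate 3, 0.48 without VT107 replicate 3 and 0.29 without both. KCNQ1OT1 had 0.44 (-0.40 to 1.27, adjusted p = 0.777) in NF1 mutant cells and 0.26 (-0.12 to 0.64, adjusted p = 0.999) in parental cells, where its VT107 libraries lay above the DMSO ones under TMM scaling and not with plain library sums. Its value in NF1 mutant cells was 0.23 without replicate 1 of the VT107 group, and in parental cells 0.21 without both libraries numbered 3. For MALAT1 the values were 0.04 (-0.51 to 0.58, adjusted p = 0.955) in NF1 mutant cells and 0.07 (-1.19 to 1.33, adjusted p = 0.999) in parental cells, so the parental interval left room for a change of over 2 fold in either direction. With the block the parental MALAT1 value turned to -0.12 (-0.68 to 0.45, adjusted p = 0.836), and it was 0.26 without both libraries numbered 3.

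Among the hosts SNHG1 was the nearest to the threshold in parental cells, and in NF1 mutant cells only without replicate 1 of the VT107 group. It had -0.40 (95% interval -0.84 to 0.04, adjusted p = 0.999) in parental cells and, without replicate 1 of the VT107 group, -0.48 (-0.74 to -0.22, adjusted p = 0.0699) in NF1 mutant cells, where with that library it was 0.13 (-0.80 to 1.06, adjusted p = 0.911). SNHG5 had -0.47 (-1.81 to 0.87, adjusted p = 0.813) in NF1 mutant cells and 0.49 (-0.27 to 1.26, adjusted p = 0.999) in parental cells, where it was 0.05 without VT107 replicate 2. SNHG8 had -0.51 (-1.57 to 0.55, adjusted p = 0.783) in NF1 mutant cells and 0.22 (-0.38 to 0.82, adjusted p = 0.999) in parental cells. GAS5 was nearest to 0, with 0.02 (-0.50 to 0.54, adjusted p = 0.972) in NF1 mutant cells and 0.07 (-0.57 to 0.71, adjusted p = 0.999) in parental cells. Without replicate 1 the NF1 mutant values were -0.01 for SNHG5, -0.12 for SNHG8 and -0.05 for GAS5. Without both libraries numbered 3 the parental values were -0.20 for SNHG1, 0.74 for SNHG5, 0.28 for SNHG8 and 0.20 for GAS5.

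Members whose groups did not overlap were few. In NF1 mutant cells 2 of 8, MEG3 and NEAT1, were higher in VT107 and none lower, against 7.60% of genes higher and 8.28% lower. Without replicate 1 of the VT107 group SNHG1 was also lower without overlap, against 15.5% of genes higher and 16.3% lower. In parental cells 2 of 8, MEG3 and KCNQ1OT1, were higher and none lower, against 4.44% higher and 6.05% lower. With plain library sums the parental count became 0 higher and 1 lower, SNHG1.

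**Figure D5:**
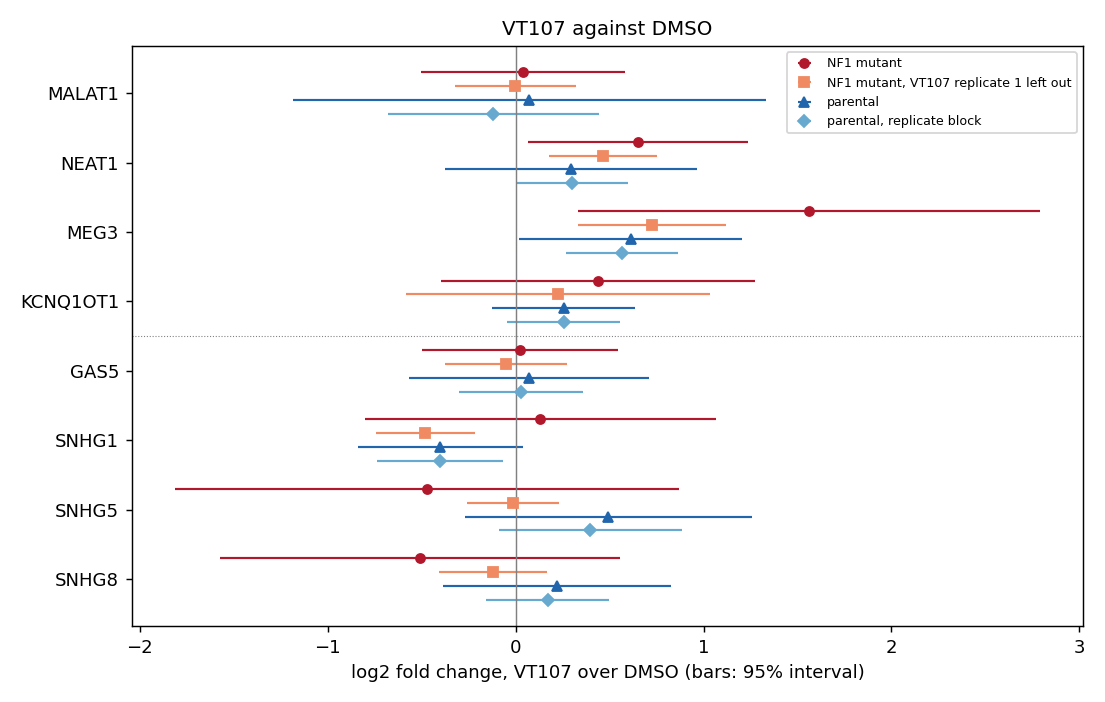
Log2 fold change of VT107 over DMSO for each RNA with 95% intervals, in NF1 mutant cells with all libraries and without VT107 replicate 1, and in parental cells without and with the replicate block (n = 3 libraries a group, or 2 where one is left out). The MEG3 intervals lie above 0 in all 4 settings although none of its adjusted p values passed 0.05.

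The difference of the VT107 responses between the genotypes, taken as NF1 mutant minus parental, was tested in one fit of the 12 libraries. None of 11432 genes passed (0%), 78 had an unadjusted p under 0.05, and DESeq2 called none. For the members the difference on the log2 scale ranged between -0.96 (SE 0.71) for SNHG5 and 0.96 (SE 0.61) for MEG3, each with an adjusted p of 1. Without NF1 mutant VT107 replicate 1 the same 2 values were -0.50 (SE 0.39) and 0.13 (SE 0.37). For MALAT1 the difference was -0.03, with a 95% interval of -1.38 to 1.33.

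The related lists held few calls for VT107. Of 8 and 7 other nuclear-enriched RNAs, and 15 and 15 other snoRNA hosts, tested in parental and in NF1 mutant cells, none passed with all libraries, with the parental block or without the outlying mutant library. The other hosts had a median log2 fold change of -0.16 in NF1 mutant cells without that library, with 11 of 15 negative, and of -0.14 in parental cells, with 10 of 15 negative, against medians of 0.01 over all genes in both. The 12 paraspeckle proteins were all on the negative side in parental cells (median -0.21), as were the 8 nuclear speckle proteins (median -0.22), and 11 of 12 and 7 of 8 were so in NF1 mutant cells, and none of them passed. In parental cells 1 of 12 and 1 of 8 were lower without overlap, against 6.05% of all genes. With all libraries, 3 of 12 and 2 of 8 were so in NF1 mutant cells, against 8.28%. Without the outlying mutant library 9 of 12 paraspeckle proteins (median -0.17) and 7 of 8 nuclear speckle proteins (median -0.145) were negative there. Among 9 snoRNP assembly factors NOLC1, a chaperone of snoRNPs, fell by 0.57 on the log2 scale in parental cells with the block (SE 0.11, adjusted p = 0.0368). Among 14 nonsense-mediated decay factors MAGOH, of the exon junction complex, fell by 0.71 in NF1 mutant cells without replicate 1 of the VT107 group (SE 0.16, adjusted p = 0.0375). The stromal marker PDGFRA rose by 1.10 (SE 0.16, adjusted p = 0.015) in parental cells with the block, and COL1A1 by 0.53 (SE 0.11, adjusted p = 0.0278) in NF1 mutant cells without that library, while DCN and LUM stayed at or below 1.42 CPM. Without the block, or with that library included, none of these 4 passed. The part of the stromal genes in the members' values was not tested.

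The genes whose pattern over the 12 H2052 libraries was most like that of MALAT1, by the root mean square difference of mean-centred log2 CPM among 8910 genes with a mean log2 CPM of at least 3, were NFIC (0.77), DNAJC3 (1.00) and BCYRN1 (1.02). MALAT1 itself varied by 2.81 over these libraries. BCYRN1, a noncoding RNA made by RNA polymerase III, had 760 to 1161 CPM in NF1 mutant cells in DMSO, against 12400 to 19650 CPM in parental cells in DMSO. For GAS5 the nearest were COMMD8 (0.13), MRPL15 (0.14) and GLRX3 (0.14), where GAS5 varied by 0.41.

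The second mesothelioma line of the series, H226, gave little on these RNAs. Of the 8 members, GAS5 and SNHG8 have a row in its table. GAS5 had 1 to 2 counts in H226 cells in VT107 and 0 to 1 in H226 cells in DMSO, and SNHG8 had 3 to 4 counts in VT107 and 3 to 5 in DMSO. The abundant ACTB had 1 to 8 counts in H226 libraries, against 7146 to 31916 in H2052 libraries, and ZBTB37, opposite GAS5, had 6 to 13 counts against 0 to 4. The strand setting behind the H226 table was not tested, and its counts were not taken as levels of these RNAs. Only SNHG8 passed the filter on low values, with a log2 fold change of -0.35 (SE 0.55, adjusted p = 0.751), where 2499 of 12765 genes passed (19.6%).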

How the data were processed

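The authors deposited raw counts for each gene, made with bcl2fastq 2.20.0.422 and genome build hg19 from polyA libraries of H2052 and H226 cells. No source used here gives the aligner, counter, annotation release or strand setting. The H2052 table had 31017 rows, of which 63 repeated an identifier and were summed. Another table, of siRNA-transfected cells, has 16 count columns that match none of the labelled samples, and it was left out. The H226 table also holds p-values and fold changes of the authors' own comparison, which were not used.

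Only genes that reached 0.5 CPM in all libraries compared entered the test, edgeR 4.0.16 (R 4.3.3) with TMM, glmQLFit and glmQLFTest; p-values were Benjamini-Hochberg adjusted over all genes tested, with a threshold of 0.05. Each fit held the 6 libraries compared, and the difference of responses all 12. Each SE was derived from the F statistic and the log2 fold change. The script was tested on simulated data. Alternatives were RLE factors, DESeq2 1.42.0, no filter, each library left out in turn, a block for the replicate number, 1 fit of all 12 H2052 libraries and CPM over plain sums. In parental cells the deviations of same-numbered libraries from their group means correlated at 0.488 to 0.795. For numbers 1 and 2 this range was 0.488 to 0.613, and across each other they correlated at 0.517 to 0.607. These values set replicate 3 apart and do not show that numbers 1 and 2 were paired. The parental block therefore rests on a pairing that was assumed from the number. No pairing was found in NF1 mutant cells (-0.221 to 0.165). An exact permutation test of 3 against 3 cannot go below 0.10 and was not used. The p-values measure the spread between these libraries.

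The members and lists were chosen with earlier results of these data known. Named were all 8 members, for each list up to 4 genes that passed or else the 2 most abundant in the genotype comparison, the 3 genes nearest in pattern to MALAT1 and GAS5, and NF1, CTGF, CYR61 and ANKRD1. SON, NOP58, CDKN1C, RN7SL1, RPPH1, PABPC1, EEF1A1, UPF2, UPF3B, MSLN and MT-ATP8 fall outside that rule and were chosen after their values were seen. List symbols were matched by symbol or by gene identifier. Promoter windows are from RefSeq and transcripts from GENCODE v29.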

Additional observations from a re-analysis of the deposited data

How the results depend on the processing

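No member passed the test for VT107 in either H2052 genotype, or for the difference of responses, under any alternative run. The smallest adjusted p was 0.0653 in NF1 mutant cells, 0.0689 in parental cells and 0.722 for the difference. The genotype differences of the 8 members in DMSO moved by less than the spread between replicates in all 88 values of the alternatives. In VT107 87 of 88 did, where that spread was wider. Signs still changed there, as leaving out libraries gave -0.67 to 0.53 for MEG3 and -0.60 to 0.15 for SNHG8.

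Counts of genes called depended on the setting. For VT107 in parental cells, 0 became 32 with DESeq2, 215 with the replicate block and 44 without both libraries numbered 3, and stayed 0 when any single library was left out. In NF1 mutant cells 0 became 20 with DESeq2 and 3 with 1 fit of all 12 libraries, and leaving out single libraries gave 0 to 198, with 198 reached without VT107 replicate 1. Between the genotypes in DMSO, 3420 became 963 with 1 fit of all libraries, 2986 with the replicate block, and 1779 to 6409 when a library was left out, the most without parental DMSO replicate 3. In VT107 0 became 682 with DESeq2, 196 with no filter and 1297 with 1 fit of all libraries, and leaving out libraries gave 0 to 185, with 82 without parental VT107 replicate 3 and 185 without NF1 mutant VT107 replicate 1. In H226 leaving out libraries gave 1645 to 2221, against 2499, the fewest without VT107 replicate 3.

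Values near 0 changed sign. For VT107 in parental cells MALAT1 became -0.12 with the replicate block, and leaving out libraries gave -0.32 to 0.49 for MALAT1, -0.24 to 0.27 for GAS5 and -0.10 to 0.40 for SNHG8. In NF1 mutant cells SNHG1 became -0.031 with the replicate block, and leaving out libraries gave -0.48 to 0.37 for SNHG1, -0.071 to 0.14 for MALAT1 and -0.052 to 0.084 for GAS5. For the difference of responses MALAT1 became 0.0079 with RLE factors, 0.0082 with DESeq2 and 0.16 with the replicate block, and GAS5 0.0080 with the block. Leaving out libraries gave -0.44 to 0.37 for MALAT1, -0.25 to 0.28 for GAS5, -0.021 to 0.39 for KCNQ1OT1 and -0.071 to 0.81 for SNHG1. The cause of these changes was not tested. The replicate block changed no other call of a member. KCNQ1OT1, with 14 to 21 counts in a mutant library, is the member most limited by depth.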
